A study of Homo sapiens with 12 samples.

Results

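The genes described here are the 966 protein-coding genes with a count of 0 in all 4 libraries of uninduced cells, chosen on those measured zeros from a table of 36502 genes, of which 18157 are protein-coding (5.32%). The RNA came from HT1080, a human fibrosarcoma line, in 2 clones that carry switchable reporters that show which DNA touches the nuclear lamina. The GFP clone carries the m6A-Tracer, a fluorescent protein joined to a domain that binds adenine-methylated DNA. The VP16 clone carries the same tracer joined to VP16, a strong transcriptional activation domain from a herpesvirus.

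Each clone was sampled in 3 conditions, with 2 libraries in each of the 6 groups. GFP_uninduced and VP16_uninduced cells were kept in 50 ng/ml doxycycline for 4 days, which holds the tracer off. GFP_tracer and VP16_tracer cells had 3 days with doxycycline and then 24 h without it. GFP_tracer_Dam and VP16_tracer_Dam cells had the same withdrawal together with 500 nM Shield1, a ligand that stabilises Dam-LaminB1, a fusion of the bacterial adenine methyltransferase Dam to lamin B1. All groups thus had doxycycline for at least 3 days, and no group had Dam-LaminB1 stabilised without a tracer. Only the groups with Dam-LaminB1 stabilised had Shield1, so effects of the ligand and of Dam-LaminB1 cannot be told apart. Below, with and without Dam-LaminB1 mean with and without Shield1. Each tracer was carried by 1 clone, so the clone and the construct cannot be told apart. The series calls the second library of each group a biological replicate, and nothing given here says that it came from a separate culture, so each p-value speaks for the spread of these libraries alone, part or all of which may be technical. The comparisons with and without Dam-LaminB1 and those between the clones share libraries.

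The inner face of the nuclear envelope is lined by a meshwork of lamins. Large, gene-poor stretches of chromatin that touch it are called lamina-associated domains, and genes inside them are mostly silent or expressed at very low levels. Dam-LaminB1 marks the DNA that touches the lamina by methylating the adenine of GATC, and the tracer binds the marked sites. The VP16 tracer then brings an activation domain to lamina-contacting DNA, so genes that are silent beforehand are the ones in which an added transcript is easiest to see. In fibroblast-like cells such genes include olfactory receptors, hair keratin-associated proteins, germ cell genes and the receptors and enzymes of other tissues.

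The deposited table lists no gene at 0 in all 12 libraries, so every member had at least 1 count among the other 8 libraries by its construction, and its difference from uninduced cells is a consequence of the choice. The 4 uninduced libraries together held 88425794 counts, so a count of 0 over them allows a level of up to 0.0339 CPM (the count as a share of the library total, on the usual scale), counting error only. All 12 libraries held 18774905 to 24827396 counts. Just outside the choice lay 816 protein-coding genes with 1 count over the uninduced libraries. Among them PNPLA1 had its 1 count in VP16_uninduced, and 31 and 33 counts in the GFP_tracer and GFP_tracer_Dam libraries of replicate 1.

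The first 6 and the second 6 libraries reused the same 6 index sequences and are called index sets 1 and 2. Replicate 1 of every group is in index set 1 and replicate 2 in index set 2. Replicate 1 of GFP_tracer and of GFP_tracer_Dam stood apart: their summed level of 8 stress targets of ATF4 was 1854 CPM in each, against 369 to 581 CPM in the other 10 libraries. Their summed level of 6 epithelial markers was 8.19 and 12.1 CPM, against at most 1.23 CPM elsewhere. In those libraries EPCAM had 0.25 and 0.0831 CPM, CDH1 0.35 and 0.665, KRT5 0.2 and 0.208, and KRT14 0 and 0.125. Most of the sum thus came from the remaining markers, CDH16 and ESRP1, and not from the list as a whole. KRT5 was at 0.213 CPM in VP16_uninduced replicate 1. The 6 mesenchymal markers summed to 3800 to 7100 CPM, with VIM, the mesenchymal filament vimentin, at 1780 CPM or more, so the tissue label holds. The 6 blood markers summed to at most 0.649 CPM. The part of the 2 stressed libraries in each result was not tested, and values from index set 2, which holds neither of them, are given beside those of index set 1.

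Promoter sequence is shown for 5 members to which the counts below refer, because GATC is the sequence that Dam methylates. Each run gives the bases directly upstream of the most upstream RefSeq start of the gene (GRCh38.p14), 5′ to 3′ on the gene's strand, with GATC in capitals. MMP10, OVCH1 and IL20 were among the members with the most counts in the stressed GFP libraries, and DOK5 and SULT1E1 were among those that did not overlap between VP16_tracer_Dam and VP16_tracer.
MMP10, chr11:102780629-102780878 (minus strand): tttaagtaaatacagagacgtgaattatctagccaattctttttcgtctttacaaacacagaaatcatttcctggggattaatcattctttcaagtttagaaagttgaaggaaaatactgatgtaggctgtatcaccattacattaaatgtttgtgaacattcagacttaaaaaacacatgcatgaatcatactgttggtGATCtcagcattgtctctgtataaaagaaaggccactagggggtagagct
OVCH1, chr12:29497687-29497936 (minus strand): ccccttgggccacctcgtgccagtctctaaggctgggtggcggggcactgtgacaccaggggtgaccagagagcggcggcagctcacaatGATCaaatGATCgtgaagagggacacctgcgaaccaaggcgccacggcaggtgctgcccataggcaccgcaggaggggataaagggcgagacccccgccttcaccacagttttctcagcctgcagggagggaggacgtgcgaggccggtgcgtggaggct
DOK5, chr20:54475343-54475592 (plus strand): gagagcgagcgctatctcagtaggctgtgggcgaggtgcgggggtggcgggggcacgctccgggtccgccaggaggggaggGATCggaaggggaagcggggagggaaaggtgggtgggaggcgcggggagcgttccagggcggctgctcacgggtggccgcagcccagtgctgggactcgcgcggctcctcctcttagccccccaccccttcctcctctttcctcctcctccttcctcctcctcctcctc
IL20, chr1:206863315-206863564 (plus strand): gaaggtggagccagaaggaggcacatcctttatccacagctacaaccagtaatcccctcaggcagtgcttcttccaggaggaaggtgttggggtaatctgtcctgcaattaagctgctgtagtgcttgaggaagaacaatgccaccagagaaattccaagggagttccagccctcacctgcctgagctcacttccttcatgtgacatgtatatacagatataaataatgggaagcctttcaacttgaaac
SULT1E1, chr4:69860146-69860395 (minus strand): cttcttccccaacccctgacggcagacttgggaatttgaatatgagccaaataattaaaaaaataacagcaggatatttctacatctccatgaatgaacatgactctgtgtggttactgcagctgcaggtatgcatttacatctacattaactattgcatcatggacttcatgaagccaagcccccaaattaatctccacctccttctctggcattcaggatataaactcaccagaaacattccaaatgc
MMP10 has 1 GATC, 50 bases before its start, and a TGANTCA sequence, here TGAATCA, 67 bases before it. TGANTCA is a looser pattern than the core that AP-1 factors recognise, and TGAATCA is not that core. OVCH1 has 2 GATC, 160 and 152 bases before the start, and DOK5 has 1 at 169 bases. IL20 and SULT1E1 have none in this window. GATC, which reads the same on both strands, is in 35.8% of all windows of this length in the RefSeq table, and TGANTCA, searched on both strands, in 6.57%. GATC and TGANTCA do not overlap in the MMP10 window. A match is a description of the letters and says nothing of methylation or binding in these cells. A window was found for 699 of the 966 members (72.4%), which is too few for a comparison of promoter content between members and other genes, so that comparison is void.

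Members lay close to the limit of detection in every library. Over the 8 libraries they had 2507 counts in all, with a median of 2 per gene. A single count was all that 446 members (46.2%) ever had, 211 had 2, 191 had 3 to 4, 95 had 5 to 9 and 23 had 10 or more. The number of libraries with a count was 1 for 500 members, 2 for 235, 3 for 134, 4 for 57, 5 for 28, 6 for 9, 7 for 2 and all 8 for 1. That 1 member was PIPOX, a peroxisomal enzyme that oxidises pipecolic acid, with 1 and 1 counts in GFP_tracer replicates 1 and 2, 3 and 1 in GFP_tracer_Dam, 1 and 2 in VP16_tracer and 2 and 1 in VP16_tracer_Dam.

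The summed level of the members separated the index sets in every group. In GFP_tracer the members summed to 25.27 CPM in replicate 1 and 7.182 CPM in replicate 2. GFP_tracer_Dam had 29.8 and 6.621 CPM, and replicate 1 of both GFP groups is a stressed library. VP16_tracer had 11.36 and 6.104 CPM, and VP16_tracer_Dam 17.77 and 7.171 CPM. Every library of index set 1 lay above every library of index set 2. The 4 libraries of set 1 held 1892 of the 2507 counts and those of set 2 held 615, with 537 members seen only in set 1, 157 only in set 2 and 272 in both.

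**Figure D1:**
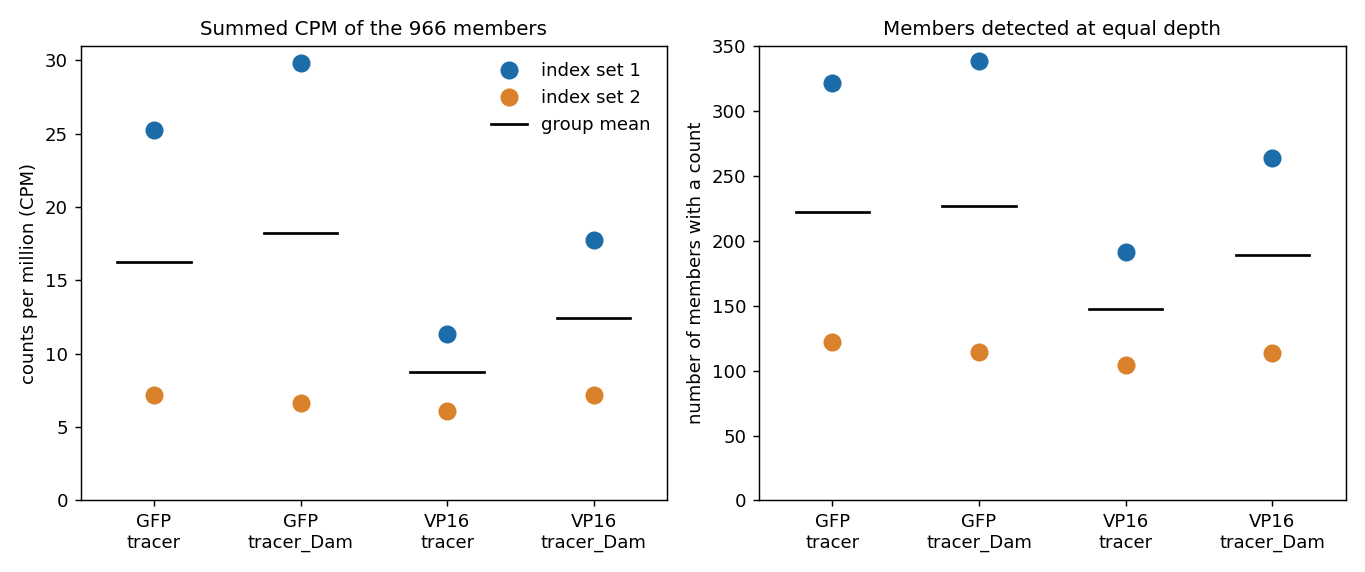
Summed level of the 966 members in CPM (left) and the number of members with a count after thinning every library to the same total (right), for each of the 8 induced libraries. Points are single libraries, coloured by index set, and lines are group means (n = 2). In both panels the points of index set 1 lie above those of index set 2, and the VP16_tracer_Dam point lies above the VP16_tracer point of its set.

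The main question of the study's design for these genes is whether the VP16 tracer raised them once Dam-LaminB1 was present. In index set 1 the members had 242 counts in VP16_tracer and 427 in VP16_tracer_Dam, which made the CPM 1.56 times as high (95% exact binomial interval 1.33 to 1.84). In index set 2 they had 140 and 164 counts, or 1.17 times the CPM (0.932 to 1.48). The level with Dam-LaminB1 was thus above the level without it in both sets, and only in set 1 did the counting interval leave out 1. These intervals, here and below, cover counting error only, since reads of one transcript are not independent molecules.

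As group means the members summed to 8.732 ± 3.72 CPM in VP16_tracer and 12.47 ± 7.49 CPM in VP16_tracer_Dam (SD, n = 2 each). The difference of 3.74 CPM was about the SD of VP16_tracer and below that of VP16_tracer_Dam, and each SD includes the offset between the index sets. Within index sets the difference was 6.40 CPM in set 1 and 1.07 CPM in set 2. The pooled difference rested on replicate 1 of VP16_tracer_Dam: without that library, VP16_tracer_Dam lay 1.56 CPM below the mean of both VP16_tracer libraries (a difference of -1.56 CPM), which compares a set 2 library with a mean over both sets.

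The same comparison in the GFP clone, whose tracer has no activation domain, serves as a control for Dam-LaminB1 and Shield1, though in a different clone. In index set 1 the members had 506 counts in GFP_tracer and 717 in GFP_tracer_Dam, or 1.18 times the CPM (1.05 to 1.32). Both of these are the stressed libraries. In index set 2 they had 154 and 157 counts, or 0.922 times the CPM (0.733 to 1.16). The GFP means were 16.23 ± 12.8 CPM in GFP_tracer and 18.21 ± 16.4 CPM in GFP_tracer_Dam (SD, n = 2 each). Their difference of 1.98 CPM was far within the spread of either group, and within index sets it was 4.52 and -0.561 CPM. Without F2RL3, the member with the most counts, the pooled difference was 0.96 CPM. Left without GFP_tracer_Dam replicate 1 the difference was -9.61 CPM, and without GFP_tracer replicate 2 it was -7.06 CPM.

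Detection, the number of members with at least 1 count, was set beside the summed level. Of the 966 members, 214 had a count in VP16_tracer replicate 1 and 321 in VP16_tracer_Dam replicate 1, against 125 and 134 in replicate 2. The GFP libraries had 338 and 404 in replicate 1 and 138 and 142 in replicate 2. Thinned to the smallest library total, the numbers were 191.2 and 263.9 for the VP16 pair of set 1 and 104.4 and 113.8 for that of set 2. For the GFP pairs they were 321.8 and 338.7 in set 1 and 122.5 and 114.6 in set 2. The mean over sets was 41.0 members more with Dam-LaminB1 in the VP16 clone and 4.51 more in the GFP clone, against SDs within a group from 61.4 to 158 members (n = 2). Without VP16_tracer_Dam replicate 1 the VP16 value was -34.0 and without VP16_tracer replicate 2 it was -2.35. Without GFP_tracer_Dam replicate 1 the GFP value was -108, and without GFP_tracer replicate 2 it was -95.1.

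Few members reached more than a handful of counts in any library. At least 5 counts were reached by 10 members in GFP_tracer replicate 1, 11 in GFP_tracer_Dam replicate 1, 5 in VP16_tracer_Dam replicate 1 and 0 in each of the other 5 libraries. The largest count of a member was 54 for F2RL3 in GFP_tracer_Dam replicate 1, and 6 for DOK5 in VP16_tracer_Dam replicate 1. The excess in the VP16 clone was therefore spread thinly over many genes. In set 1, 263 members were higher and 191 lower with Dam-LaminB1 among 454 with a count in the pair. The largest gain was 5 counts, for DOK5, and the largest loss 2. In set 2, 131 were higher and 111 lower among 242. Equal counts in a pair took their direction from the library totals alone, as lower in set 1 and as higher in set 2. Members seen in 1 library of the pair alone numbered 240 with Dam-LaminB1 and 133 without it in set 1. In set 2 they numbered 117 and 108. These numbers are not thinned, and in set 1 the Dam-LaminB1 library had the larger total, 24033306 against 21297256 counts. No share over all genes was computed for the directions or for these numbers, here or in the GFP pairs below. Without the 20 leading members the ratios were 1.52 (1.29 to 1.8) and 1.2 (0.942 to 1.53).

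Among the GFP pairs, 302 members were higher and 285 lower in set 1, and 122 higher and 131 lower in set 2. Equal counts were scored as lower in both pairs, since the Dam-LaminB1 library had the larger total. Without the 20 leading members the GFP ratios were 1.08 (0.945 to 1.23) and 0.91 (0.719 to 1.15). The GFP ratio of set 1 thus had an interval that included 1 once those genes were left out.

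A like ratio was seen in genes that the choice did not take. The 816 protein-coding genes with 1 uninduced count had VP16_tracer_Dam over VP16_tracer ratios of 1.58 (1.35 to 1.84) in set 1 and 1.1 (0.902 to 1.35) in set 2. The ratio in set 1 was smaller in the classes with more uninduced counts: 1.3 for the 1085 genes with 2 to 4 counts, 1.16 for 1681 genes with 5 to 20, 1.15 for 1715 genes with 21 to 100, 1.08 for the next 2822 genes and 0.998 for the 9072 most abundant ones. In set 2 the same classes had 1.15, 1.11, 1.05, 1.03 and 0.999. Over these classes the ratio therefore lay above 1 in both sets for all but the most abundant genes, and it was not limited to genes at exactly 0.

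The GFP clone had a similar course in set 1, where its stressed libraries lie. The 816 genes with 1 uninduced count had ratios of 1.17 (1.05 to 1.31) in set 1 and 1.2 (0.978 to 1.48) in set 2. The next 4 classes had 1.12, 1.13, 1.12 and 1.06 in set 1, and 1.02, 1.02, 1.0 and 1.01 in set 2. The 3748 genes of other biotypes that also had 0 uninduced counts, such as pseudogenes and noncoding RNAs, gave VP16 ratios of 1.16 (1.06 to 1.27) and 1.03 (0.928 to 1.14), and GFP ratios of 1.03 and 1.01. The difference between coding and other genes was not tested.

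**Figure D2:**
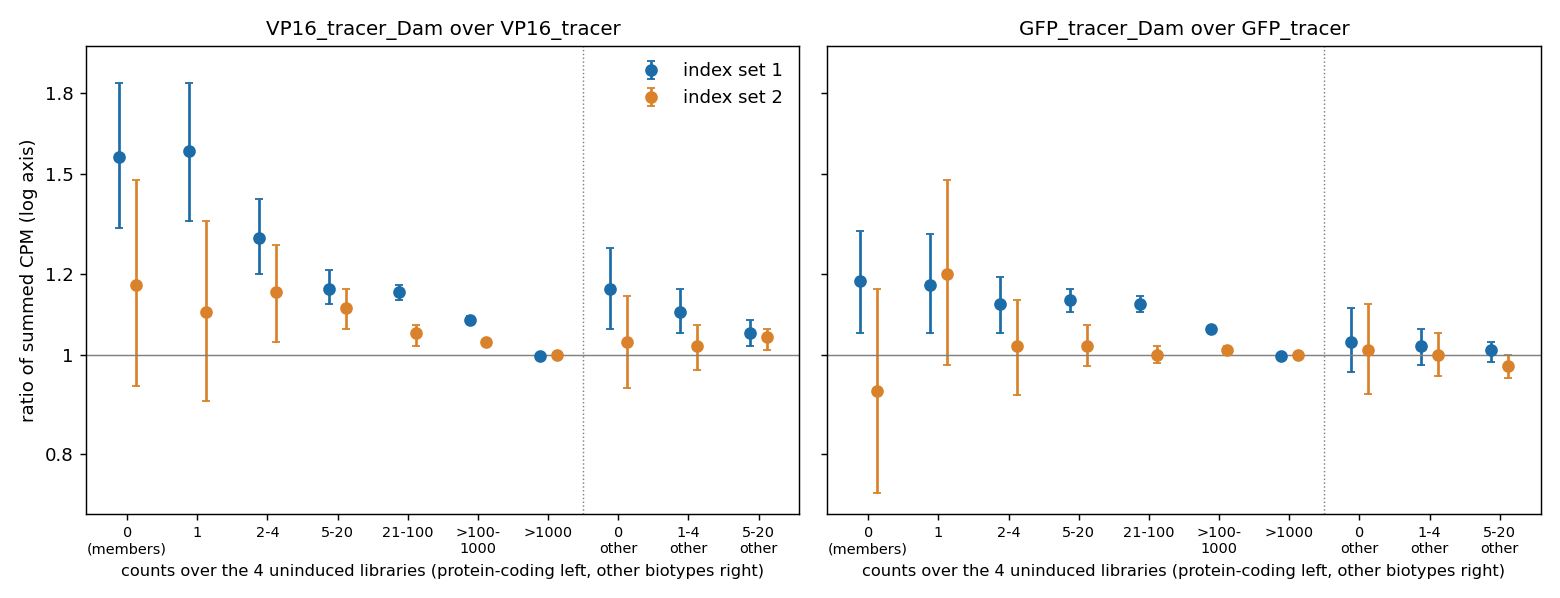
Ratio of summed CPM with Dam-LaminB1 over tracer alone (log axis) for genes grouped by their counts over the 4 uninduced libraries, with protein-coding genes to the left of the dotted line and other biotypes to the right. Points are ratios in 1 index set and bars are 95% exact binomial intervals for counting error. In the VP16 clone the set 1 ratio goes from 1.56 for the members to 0.998 for the most abundant genes, and in the GFP clone from 1.18 to 0.997.

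Index sets differed in the same graded way. The 1715 coding genes with 21 to 100 uninduced counts summed to 1507 and 914.3 CPM in the GFP_tracer libraries of sets 1 and 2, and to 1074 and 806.4 CPM in the VP16_tracer libraries. The cause of the difference between the sets was not tested.

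For single members the 4 libraries of a comparison were set side by side. A member was counted when both Dam-LaminB1 libraries lay above both tracer libraries, or both below. In the VP16 clone 590 members had a count in the 4 libraries, and 27 of them (4.58%) lay higher with Dam-LaminB1, against a background of 11.5% of 17264 protein-coding genes with a count. Lower were 20 members (3.39%), against a background of 7.44%. In the GFP clone 29 of 714 members (4.06%) lay higher and 27 (3.78%) lower, against backgrounds of 5.73% and 5.69% of 17502 genes. All 4 shares of members were below their background, and a member at 0 in libraries of both conditions ties and cannot meet this criterion. The genes with 1 uninduced count had 8.88% higher and 5.17% lower in the VP16 clone.

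Of the members with a count in the VP16 libraries, 278 were seen only with Dam-LaminB1, 182 only without it and 130 in both conditions. In both VP16_tracer_Dam libraries 47 members had a count, 21 of them with no count in VP16_tracer. In both VP16_tracer libraries 27 had a count, 14 of them with none in VP16_tracer_Dam. The GFP clone gave 284 only with Dam-LaminB1, 224 only without, 206 in both, and 26 against 13 for the members seen in both libraries of one condition and in none of the other. The 21 and 14 are among the 27 and 20 VP16 members above. The 26 and 13 are among the 29 and 27 GFP members, all shares below background. No share over all genes was computed for the other counts, which are not thinned. In set 1 the Dam-LaminB1 library was larger, with 24033306 against 21297256 counts (VP16) and 24063765 against 20022620 (GFP).

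Up to 8 members per direction were named by the size of the difference among those whose libraries did not overlap, and each rests on a few reads. DOK5, an adaptor of receptor tyrosine kinases on chromosome 20 whose promoter window holds 1 GATC, had 6 and 2 counts in VP16_tracer_Dam replicates 1 and 2. It had 1 and 0 in VP16_tracer, 1 and 0 in GFP_tracer_Dam and 0 in both GFP_tracer libraries. Its mean level was thus 0.145 CPM higher with Dam-LaminB1 in the VP16 clone, the highest difference of any member there.

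HLA-DRB5, an MHC class II chain, had 4 and 2 counts in VP16_tracer_Dam and 0 in the other 6 induced libraries. Its reads can be shared with near-identical DRB genes, so its value is uncertain. VTCN1, a B7 family inhibitor of T cells, had 2 and 3 counts in VP16_tracer_Dam, 0 in both VP16_tracer libraries, and 2 and 0 in GFP_tracer_Dam. TMEM176B, a membrane protein of myeloid cells, had 4 and 2 in VP16_tracer_Dam, 1 and 0 in VP16_tracer, and 1 in a single GFP library. These 3 immune genes had their counts mainly, but not all, in VP16_tracer_Dam. They were named for lying higher there than in VP16_tracer, so this follows in part from the naming and says nothing of immune genes as a class.

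SULT1E1, the estrogen sulfotransferase, had 3 and 3 counts in VP16_tracer_Dam against 1 and 0 in VP16_tracer. It had 4 and 1 in GFP_tracer and 3 and 0 in GFP_tracer_Dam, so it was not limited to the VP16 clone, and its promoter window held no GATC. SLC2A2 (the glucose transporter GLUT2), GIMAP4 (a GTPase of lymphocytes) and SLITRK1 (a neuronal adhesion protein) each had 1 and 2 counts in VP16_tracer_Dam and 0 in VP16_tracer. Each of the 3 also had at least 1 count in the GFP clone. Their mean difference was 0.0645 CPM each.

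Members lower in VP16_tracer_Dam had as few counts. GH1, the growth hormone gene, and H1FOO, the oocyte linker histone, each had 2 and 1 counts in VP16_tracer and 0 in VP16_tracer_Dam. GH1 has near-identical neighbours, so its count is uncertain. RBFOX1, a neuronal splicing factor, had 1 and 2 against 0. GLP1R, the GLP-1 receptor, SHC2, an adaptor protein, and RERGL each had 1 and 1 against 0. AC008394.1 had 2 and 2 counts in VP16_tracer and 1 and 0 in VP16_tracer_Dam. The differences of these 7 ran from -0.0697 to -0.0453 CPM, the size of 1 to 2 reads per library.

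Members that lay higher in GFP_tracer_Dam by this criterion were again low. PSMB11, the catalytic subunit of the thymus proteasome, had 1 and 1 counts in GFP_tracer and 2 and 4 in GFP_tracer_Dam. It also had 0 and 2 in VP16_tracer and 3 and 2 in VP16_tracer_Dam, so it was 1 of the 2 members seen in 7 libraries. KRT14, a keratin of basal epidermis, had 3 and 1 in GFP_tracer_Dam and 0 in GFP_tracer, and DAZL, a germ cell RNA-binding protein, had 2 and 1 against 0. Lower with Dam-LaminB1 were OXCT2, a testis enzyme of ketone use (2 and 3 counts against 0 and 0), TDRD1, a germ cell factor (3 and 2 against 1 and 0), KCNF1, a potassium channel subunit (3 and 1 against 0 and 0), and MYOG, the muscle factor myogenin (2 and 1 against 0 and 0). OXCT2 overlaps another gene of the table, and the use of strand in counting is not given, so its reads may belong to that neighbour.

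The members with the most counts were led by the stressed GFP libraries. F2RL3, the thrombin receptor PAR4 of platelets, had 4 and 0 counts in GFP_tracer replicates 1 and 2, 54 and 0 in GFP_tracer_Dam, 1 and 1 in VP16_tracer and 1 and 0 in VP16_tracer_Dam. IL20, a cytokine of the IL-10 family that acts on epithelia, had 6 and 0, 27 and 0, 1 and 2, and 5 and 1 counts in the same order. Both genes were thus high in 1 library, GFP_tracer_Dam replicate 1, and absent from its partner in set 2.

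MMP10, the matrix metalloproteinase stromelysin-2, had 12 and 0 counts in GFP_tracer and 14 and 1 in GFP_tracer_Dam. It had 1 and 0 in VP16_tracer and 3 and 1 in VP16_tracer_Dam. OVCH1, a serine protease gene, had 12 and 0 in GFP_tracer, 14 and 0 in GFP_tracer_Dam and 0 in the 4 VP16 libraries. The same pattern, counts in replicate 1 of both GFP groups and few or none elsewhere, held for KIAA1239 (9 and 9 counts there), PKD2L1, a polycystin channel (4 and 12), and HMX3, a homeobox factor (5 and 6). MMP10 and OVCH1 each overlap another gene of the table, so some of their reads may be a neighbour's.

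Some leading members also had counts in the VP16 libraries. TM7SF4, the cell fusion receptor DC-STAMP of osteoclasts, had 4 and 0, 11 and 0, 1 and 2, and 2 and 0 counts in GFP_tracer, GFP_tracer_Dam, VP16_tracer and VP16_tracer_Dam. C17orf74 was a rare leading member with most of its counts in the VP16 clone: 4 and 0 in VP16_tracer, 5 and 3 in VP16_tracer_Dam and a total of 1 over the 4 GFP libraries. PLA2G4E, a cytosolic phospholipase A2, reached 6 counts in VP16_tracer_Dam replicate 1 and 0 in replicate 2. LRMP, a membrane protein of lymphocytes, had 7 and 2 in GFP_tracer, 1 and 0 in GFP_tracer_Dam, 0 in VP16_tracer and 2 and 0 in VP16_tracer_Dam. The 20 leading members together held 14.9% of all member counts.

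**Figure D3:**
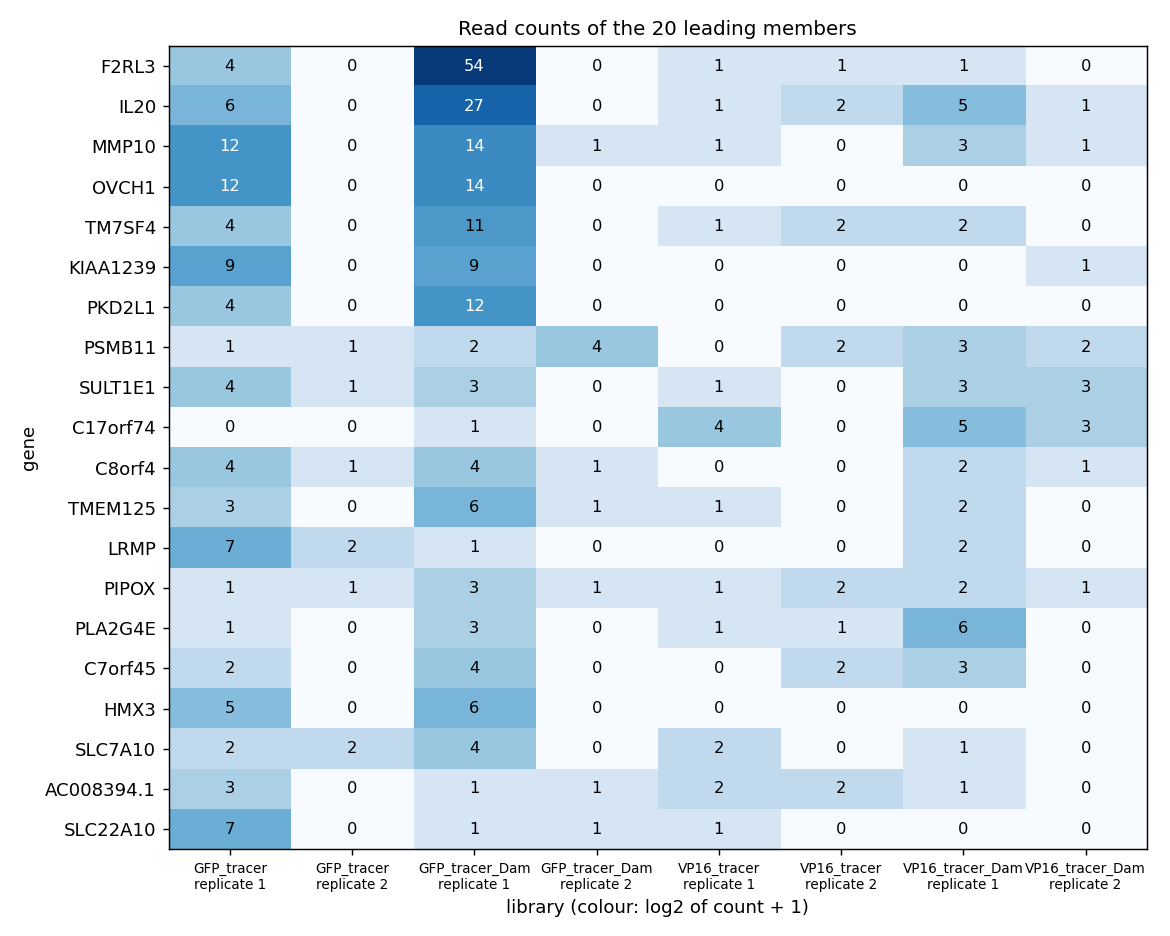
Read counts of the 20 members with the largest mean CPM (one row each, largest summed count at the top) in the 8 induced libraries. Numbers are counts and the colour is log2 of the count plus 1. The darkest cells are in replicate 1 of GFP_tracer and GFP_tracer_Dam, led by 54 counts of F2RL3, and no VP16 library exceeds 6 counts.

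Across all genes, edgeR's quasi-likelihood test kept 17262 genes after its filter on low counts, and only 2 members, MMP10 and OVCH1, passed that filter. They passed through the stressed GFP libraries and are no sample of the members. No gene was called at an adjusted p of 0.05 for VP16_tracer_Dam against VP16_tracer (background 0%), and 53 genes had an unadjusted p under 0.05. GFP_tracer_Dam against GFP_tracer also gave 0 calls (0%), with 80 genes at an unadjusted p under 0.05. The difference between the clones in the Dam-LaminB1 change and the change averaged over the clones gave 0 calls each (0% and 0%), with 50 and 101 genes at that level. DESeq2 gave 0 calls in all 4 (0% each), with 19, 32, 10 and 66 genes at an unadjusted p under 0.05. With the index set as a block, edgeR had 195, 215, 122 and 339 such genes in the same order. If no gene changed, about a share of 0.05 of the 17262 genes would lie there, and all these numbers are far below it. The p-values thus ran high, and 0 calls are no evidence that nothing changed. No test on MMP10 and OVCH1 is given, since their entry rests on the GFP libraries where they are high.

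With a filter of at least 1 count in 2 libraries, edgeR tested 32690 genes, 466 members among them, and called no member in any of the 6 comparisons. Among all genes it called 0 (0%) in each of the 4 Dam-LaminB1 comparisons, 59 (0.18%) for VP16_tracer against GFP_tracer and 76 (0.232%) for the Dam-LaminB1 groups of the clones. At an unadjusted p under 0.05 there were 0 members in the VP16 comparison and 1 in the GFP comparison. That member was OXCT2, with a log2 change of -4.46 ± 1.92 (SE, edgeR adjusted p = 1). The average over clones also had 1, VTCN1, at 3.7 ± 1.58 (SE, edgeR adjusted p = 1). This fit includes the uninduced libraries, at 0 for every member by the choice, so the SEs and p-values of members depend on that choice.

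The clones were also compared with each other, with the same libraries. VP16_tracer against GFP_tracer gave 57 edgeR calls among all genes (0.33%) and VP16_tracer_Dam against GFP_tracer_Dam gave 45 (0.261%), with 0 members in either. DESeq2 called 376 genes in the first (2.18%) and 389 in the second (2.25%), also with 0 members. Since the index sets pair the libraries, the fit with the set as a block is given beside these counts: it made 490 calls (2.84%) and 551 calls (3.19%), and 0 (0%) in each of the 4 Dam-LaminB1 comparisons, with neither of the tested members called in any. Fits of only the compared groups made 0 calls in both clone comparisons, with 940 and 811 genes at an unadjusted p under 0.05, and tested no member. When the low filter was used together with the index set as a block, a choice made after seeing the data, edgeR called 1 member, F2RL3, lower in VP16_tracer_Dam than in GFP_tracer_Dam, with a log2 difference of -5.32 ± 1.00 (SE, adjusted p = 0.0149). That was 1 of 466 members, against 667 of 32690 genes (2.04%) in that comparison. The same fit called 542 genes (1.66%) and 0 members between the tracer groups, and 0 genes (0%) in each Dam-LaminB1 comparison. The F2RL3 call rests on the 54 counts in GFP_tracer_Dam replicate 1, with 0 in its replicate 2. Its p-value also draws on the uninduced libraries, where every member is at 0 by the choice, so it is no independent test.

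By family, the members were rich in genes of other tissues, which describes the choice and is not a test. Of 25 gene families defined by symbol, keratin-associated proteins of hair had the largest share at 0 in uninduced cells, 24 of the 35 listed (68.6%). Olfactory receptors followed with 43 of 105 (41.0%), interferons with 4 of 10 (40.0%) and the epidermal differentiation genes with 9 of 29 (31.0%), against 5.32% of all protein-coding genes. At the other end were zinc finger genes with 12 of 536 (2.24%), muscle genes with 2 of 58 (3.45%) and replication-dependent histones with 2 of 48 (4.17%). Genes that share sequence, such as olfactory receptors and keratin-associated proteins, may also lose reads to near-identical copies. The families held 295 of the 966 members.

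The 24 keratin-associated proteins had 2 and 0 counts in VP16_tracer and 12 and 1 in VP16_tracer_Dam. They had 7 and 1 in GFP_tracer and 14 and 0 in GFP_tracer_Dam, so index set 1 had more counts with Dam-LaminB1 in both clones, a difference in size that was not tested between them. No more than 10 of the 24 had a count in any library. KRTAP5-1 had the most, with 2 and 0, 3 and 0, 0 and 0, and 1 and 0 counts in GFP_tracer, GFP_tracer_Dam, VP16_tracer and VP16_tracer_Dam.

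The 9 epidermal differentiation genes had 2 and 0 counts in VP16_tracer and 6 and 2 in VP16_tracer_Dam, and 2 and 0 then 8 and 1 in the GFP pair. LOR, loricrin of the cornified envelope, gave 3 of the 6 in VP16_tracer_Dam replicate 1, and SPRR2E, a small proline-rich protein, gave 4 of the 8 in GFP_tracer_Dam replicate 1. The 10 keratins had 3 and 2, then 6 and 3 counts in the VP16 pair, and 5 and 1, then 10 and 1 in the GFP pair. Skin genes therefore had more counts with Dam-LaminB1 in set 1 of both clones. The epithelial marker list, which includes the member KRT14, was highest in the stressed GFP libraries, mostly through CDH16 and ESRP1. Its part in these family counts was not tested.

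Olfactory receptors, which are the textbook silent genes outside the nose, showed no such order. The 43 members had 9 and 0 counts in VP16_tracer and 10 and 2 in VP16_tracer_Dam, 16 and 7 in GFP_tracer and 15 and 8 in GFP_tracer_Dam. At most 12 of the 43 had a count in any library, and OR51E2, known from prostate, had 3 counts over the 8 libraries.

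Signalling molecules and receptors of immune cells were low as well. The 15 interleukins and chemokines had 3 and 3 counts in VP16_tracer and 10 and 1 in VP16_tracer_Dam, and 12 and 1 then 32 and 2 in the GFP pair, where IL20 gave 27 of the 32. The 17 immune cell receptors had 3 and 4 counts in VP16_tracer and 10 and 0 in VP16_tracer_Dam, so the sets went in opposite directions. The 4 interferons had 3 and 0 counts in VP16_tracer and none in VP16_tracer_Dam, from IFNA6, IFNG and IFNK with 1 count each.

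Membrane transporters formed the second largest family. The 29 solute carriers had 10 and 3 counts in VP16_tracer and 16 and 5 in VP16_tracer_Dam, and 26 and 9 then 26 and 10 in the GFP pair. SLC7A10, a neutral amino acid transporter, had 2 and 2, 4 and 0, 2 and 0, and 1 and 0 counts, but overlaps an expressed gene, LRP3. SLC22A10, of the organic anion transporter family, had 7 and 0 counts in GFP_tracer and 1 and 1 in GFP_tracer_Dam. Summed by family, CPM was higher with Dam-LaminB1 in both sets in 10 of the 25 families of the VP16 clone and lower in both in 5. The GFP clone had 5 families higher in both and 5 lower in both. Some of these directions came from equal counts, and thus from the library totals alone. In the VP16 clone these were zinc finger genes in set 2 (1 and 1) and cancer-testis antigens in set 1 (2 and 2). In set 2 of the GFP clone they were muscle genes (1 and 1) and immune cell receptors (3 and 3).

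Members lay on all 24 chromosomes, from 5 on the Y chromosome to 94 on chromosome 1. As a share of the protein-coding genes listed they ran from 3.17% on chromosome 15 to 8.11% on chromosome 21 among the autosomes. The X chromosome had 48 of 698 (6.88%) and the Y chromosome 5 of 19 (26.3%). In the VP16 clone the summed CPM of a chromosome's members was higher with Dam-LaminB1 on 20 chromosomes in index set 1 and on 16 in set 2, on 13 of them in both, and lower in both only on the X chromosome. For the GFP clone it was higher on 16 in set 1, on 9 in set 2 and on 4 in both, and lower in both on 3. Some VP16 directions came from equal counts, and thus from the library totals alone. In set 2 chromosome 6 had 8 and 8 counts, and chromosomes 13 and 15 had 3 and 3 each. These chromosomes are among the 16 and the 13. The X chromosome had equal counts in set 1, 9 and 9.

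The chromosomes rest on few reads each. Chromosome 14 had 1 count in VP16_tracer and 14 in VP16_tracer_Dam in set 1, and 6 and 4 in set 2. Chromosome 20, which holds DOK5, had 6 and 23 counts in set 1 and 2 and 5 in set 2. Chromosome 17 had 22 and 41, then 6 and 10. The X chromosome had 9 and 9, then 8 and 5. The largest difference of set 1 in the VP16 clone was 0.818 CPM, on chromosome 1, which holds the most members. Among the GFP pairs chromosome 19 stood out in set 1 with 31 and 103 counts, of which F2RL3 gave 4 and 54.

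**Figure D4:**
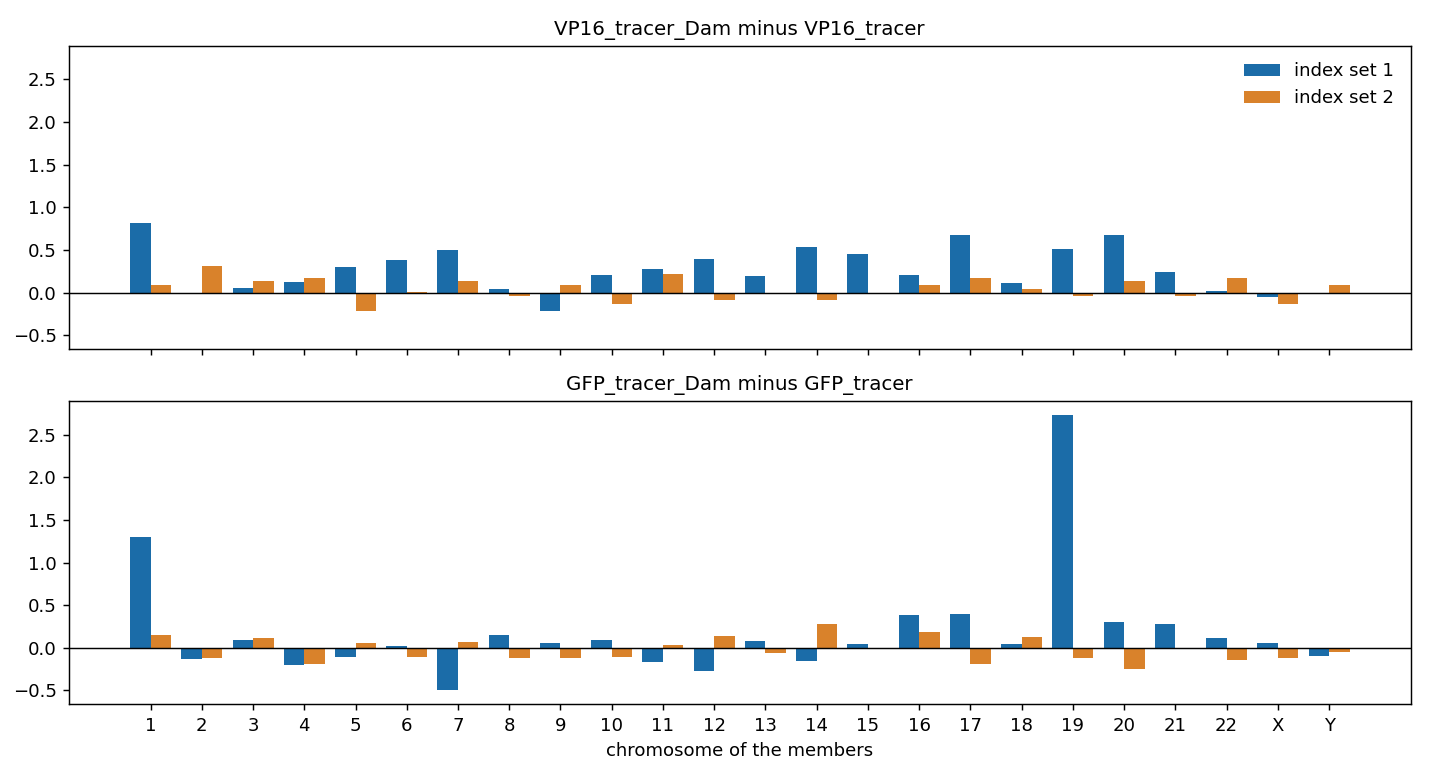
Difference in the summed CPM of members between Dam-LaminB1 and tracer alone, by chromosome, for the VP16 clone (top) and the GFP clone (bottom). Bars are single pairs of libraries, coloured by index set. In the VP16 clone 20 of 24 bars of set 1 and 16 of set 2 are above 0, and in the GFP clone the tallest bar is chromosome 19 of set 1. The VP16 set 2 bars of chromosomes 6, 13 and 15 come from equal counts and lie barely above 0.

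By position in GRCh37, the members were shorter than other protein-coding genes. Their median span was 13.1 kb, against 29.6 kb for the other protein-coding genes. An expressed gene, meaning one with a mean of at least 10 CPM, overlapped 61 members and lay within 10 kb of 110, 10 to 100 kb from 424 and over 100 kb from 371 (38.4%). These distances are given for members only and were not compared with those of other genes. SLITRK1 lay farthest of the members named above, 3536258 bases from SPRY2, and DOK5 lay 247545 bases from PFDN4.

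The VP16 ratios of set 1 and set 2 were 1.62 and 1.25 for the 371 members over 100 kb away and 1.58 and 1.48 for the 424 at 10 to 100 kb. They were 1.72 and 0.573 for the 110 within 10 kb, and 0.93 and 0.912 for the 61 that overlapped an expressed gene, on 20 and 21, then 11 and 10 counts. The GFP ratios were 1.06 and 0.885, 1.12 and 0.892, 1.72 and 0.796, and 1.21 and 1.56 in the same order. The 2 groups nearest to expressed genes thus had VP16 ratios on both sides of 1. The differences between these groups were not tested.

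Some members were neighbours of each other in the order of the protein-coding genes listed. Runs of such neighbours held 224 members, and 742 stood alone. The longest was a run of 6 keratin-associated proteins on chromosome 21 (45993606 to 46102078, GRCh37), KRTAP10-4 to KRTAP12-1, with 9 counts in all 8 libraries. Next came 5 of the KRTAP4 and KRTAP9 genes on chromosome 17 (39295685 to 39383904) and 4 olfactory receptors, OR51E1 to OR52E2, on chromosome 11 (4664650 to 5080857). A run of 4 on chromosome 19 (48304500 to 48547304) mixed TPRX1 and CRX, homeobox genes of embryo and photoreceptor, with ELSPBP1 and CABP5. Members in runs had VP16 ratios of 1.87 and 1.5, on 46 and 97, then 28 and 42 counts, and members alone 1.49 and 1.09. The GFP ratios were 1.22 and 0.763 in runs and 1.17 and 0.964 alone. The difference between members in runs and members alone was not tested.

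Members that overlapped another gene of the table numbered 265, and 701 overlapped none. Those that overlapped none had VP16 ratios of 1.69 and 1.13 and the others 1.23 and 1.28, each above 1. In set 2 these rest on 100 and 113 counts without an overlap and on 40 and 51 with one. No intervals were computed for the ratios by position, run or overlap, and the set 2 interval of all members included 1. The GFP ratios were 1.19 and 0.931 without an overlap and 1.15 and 0.904 with one. In bulk RNA such as this, a few cells with many transcripts and many cells with few cannot be told apart for any member.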

How the data were processed

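RNA was sequenced from 12 libraries of HT1080 cells, with total RNA extracted by Trizol and Illumina TruSeq RNA libraries, per the labels' protocols. The submitters' processing notes name TopHat 1.4.0, Bowtie 0.12.7, HTSeq and the build GRCh37. For HTSeq, the strand setting and overlap mode were not given in the sources used here, so reads of overlapping genes cannot be told apart. The authors deposited raw read counts, as whole numbers, for genes with Ensembl identifiers. The table held 36502 genes, 59 of them without annotation, and 18774905 to 24827396 counts per library.

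The members and the lists were chosen with earlier results of these data known. CPM was the count divided by the library total. Detection at equal depth was the expected number of members after thinning to the smallest total. Ratios carry 95% exact binomial intervals. All genes were tested in edgeR 4.0.16 (R 4.3.3) with filterByExpr, TMM scaling and a quasi-likelihood fit with 1 coefficient per group over all 12 libraries. P-values were adjusted by Benjamini-Hochberg, and an SE is the absolute log2 change divided by the square root of F. DESeq2 1.42.0 was an alternative.

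Named members were the 20 with the largest mean CPM over the 8 induced libraries, those with a count in all 8, up to 8 per direction whose libraries did not overlap in a Dam-LaminB1 comparison, any member called, and up to 3 per family by summed count. One gene that the rule names is not reported here. Index sets paired the libraries: deviations from group means correlated by 0.405 to 0.923 within a set over the 15 pairs of groups. Promoter windows are RefSeq's for GRCh38.p14, matched by symbol, and GRCh37 positions were not converted.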

Additional observations from a re-analysis of the deposited data

Results flagged for a closer look

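SULT1E1, the estrogen sulfotransferase, had mean levels that moved in opposite directions in the clones. C8orf4, a small regulatory gene, was flagged likewise, but its counts in the GFP clone were equal with and without Dam-LaminB1. The SULT1E1 mean was 0.105 CPM higher with Dam-LaminB1 in the VP16 clone, a difference for which it was named above. It was lower in both index sets of the GFP clone, from 4 and 1 counts to 3 and 0. The C8orf4 mean was 0.0635 CPM higher in the VP16 clone, from 0 counts in VP16_tracer to 2 and 1 in VP16_tracer_Dam, while 4 and 1 counts in GFP_tracer and 4 and 1 in GFP_tracer_Dam gave slightly lower levels at the larger totals. Neither gene passed the filter of the edgeR fit, so the difference was not tested there. In the fit with the lower filter, edgeR gave log2 differences between the clones of 3.09 ± 2.02 for SULT1E1 and 3.82 ± 2.27 for C8orf4 (SE, adjusted p = 1 for each). Both SEs draw in part on the uninduced libraries, where these genes are at 0 by the choice.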

How the results depend on the processing

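Of 104 alternatives over 10 results, 95 kept the direction and the side of the threshold or stayed within the spread, 8 changed sign and 1 count moved. All 8 changes of sign were in the summed CPM and detection results. The counts of members called could hardly move, since most of those fits tested few members or none. The 95 are therefore no measure of how stable the results are. The summed CPM difference of the VP16 clone ranged from -1.56 to 9.03 CPM when 1 library was left out, and that of the GFP clone from -9.61 to 13.6 CPM, with -7.06 CPM without GFP_tracer replicate 2. The number of members detected ranged from -34.0 to 116 in the VP16 clone, with -2.35 without VP16_tracer replicate 2. In the GFP clone it ranged from -108 to 117, with -95.1 without GFP_tracer replicate 2, and at a minimum of 5 counts it was -0.152. A library left out unbalances the index sets. With the index set as a replicate block the summed differences were the same by construction, 3.74 and 1.98 CPM, and 0 members were called in all 6 comparisons. Calls over all genes between the clones went from 57 and 45 to 490 and 551 under the block. The low filter with the block, added after seeing the data, called 1 member, F2RL3. Leaving out each of the 8 induced libraries in turn, in the comparisons that use it, gave 0 members called, with 1 to 7 members tested in each fit, too few to speak for the members. With only the compared groups fitted the count was also 0, where members were tested at all. With a median of 2 counts per member over the 8 induced libraries together, depth limits any statement on a single member.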
